A study of Caenorhabditis elegans with 2 samples.

Results

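Peaks of the transcription factor HLH-30 were gathered in places into dense clusters, in which 4 or more summits followed each other along an autosome at distances of 2000 bp or less. The members were chosen by measured values, namely the summit positions and signal values of the authors' thresholded peak list on the C. elegans genome build ce11. Peaks of the X chromosome were left out, overlapping peaks were merged at the summit with the highest signal value, and summits at most 2000 bp from the next on the same chromosome were joined into a chain. Chains with at least 4 merged peaks are called clusters here. They numbered 138 and held 688 of the 5393 merged autosomal peaks, or 12.8%. The thresholded list held 7168 entries in all, of which 5480 were autosomal, and 708 of these went into the 688 members.

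The data came from chromatin immunoprecipitation followed by sequencing (ChIP-seq), which recovers DNA fragments bound by a protein. There was 1 group with 2 biological replicates, both from whole L4 larvae of hermaphrodites. The strain, OP433, carries the unc-119(tm4063) allele on chromosome III and the transgene wgIs433, from which HLH-30 is made with a C-terminal GFP and FLAG tag, and the antibody was raised against GFP. All animals carried both, and no group without the transgene or under another condition was analysed here, so no comparison between conditions was made. It was therefore not tested whether such clusters of peaks also appear without the tagged protein. The animals are a mixture of tissues, and binding in few cells cannot be told apart from weaker binding in many.

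HLH-30 is the worm's counterpart of the mammalian factor TFEB, a basic helix-loop-helix leucine zipper protein that enters the nucleus under starvation and other stress and acts on genes of autophagy, lysosomes and lipid use. Proteins of this family bind as dimers to short sites called E-boxes, of which CACGTG is the palindromic form and CACATG a close variant. Groups of neighbouring sites for one or several factors are a common feature of regulatory DNA around developmental and signalling genes, and in C. elegans they lie mostly upstream of genes and in long introns.

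Sequences under 13 summits are shown first, in windows reaching 50 bp to either side, read from the plus strand of WBcel235, the assembly of ce11. Capitals mark the site CACGTG, and likewise the site CACATG, which reads CATGTG on the other strand. The first 4 windows are the strongest E-box peaks of the cluster with the most peaks, at mnk-1. They show how CACGTG recurred over several kilobases while the bases around it differed.
mnk-1 peak 7, chrII:10549417-10549517, plus strand: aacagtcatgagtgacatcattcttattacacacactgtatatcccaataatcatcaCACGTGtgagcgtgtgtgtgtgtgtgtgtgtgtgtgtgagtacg
mnk-1 peak 11, chrII:10555484-10555584, plus strand: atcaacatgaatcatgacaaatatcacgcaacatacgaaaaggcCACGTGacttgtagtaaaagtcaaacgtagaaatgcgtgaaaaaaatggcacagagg
mnk-1 peak 13, chrII:10557447-10557547, plus strand: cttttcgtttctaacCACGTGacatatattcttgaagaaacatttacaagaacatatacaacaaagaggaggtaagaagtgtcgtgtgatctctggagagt
mnk-1 peak 14, chrII:10558479-10558579, plus strand: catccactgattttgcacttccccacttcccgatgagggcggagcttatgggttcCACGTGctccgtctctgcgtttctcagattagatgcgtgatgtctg

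The next 4 windows are all the peaks of a cluster between acs-11 and F41C3.2. It was chosen after its values were seen, because it was 1 of only 2 clusters in which every peak had an E-box in its window. Its second peak held a pair of CACGTG sites. The cluster was weak, with a highest pooled signal value of 87.8. Peak 3 had 12.1 in replicate 1 and 34.4 in replicate 2. When clusters were chained from 1 replicate alone, this one appeared in replicate 2 only.
acs-11 to F41C3.2 peak 1, chrII:4745369-4745469, plus strand: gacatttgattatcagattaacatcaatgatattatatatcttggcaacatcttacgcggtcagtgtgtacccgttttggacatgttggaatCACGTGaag
acs-11 to F41C3.2 peak 2, chrII:4747208-4747308, plus strand: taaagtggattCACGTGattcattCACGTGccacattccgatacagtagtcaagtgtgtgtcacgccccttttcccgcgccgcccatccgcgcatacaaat
acs-11 to F41C3.2 peak 3, chrII:4747884-4747984, plus strand: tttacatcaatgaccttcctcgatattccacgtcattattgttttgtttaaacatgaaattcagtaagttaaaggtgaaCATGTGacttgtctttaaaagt
acs-11 to F41C3.2 peak 4, chrII:4748460-4748560, plus strand: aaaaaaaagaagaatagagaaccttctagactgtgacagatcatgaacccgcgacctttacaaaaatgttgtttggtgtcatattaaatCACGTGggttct

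The last 5 windows belong to single strong peaks described in the text that follows. Those of lgg-2 and lgg-1 carry CACATG, those of pkg-2 and hlh-11 carry CACGTG, and that of nhr-19 carries neither. The window of lgg-2 holds the site once in each orientation. The hlh-11 peak was chosen after its values were seen, as the only cluster whose host is named for the helix-loop-helix family.
lgg-2 peak 5, chrIV:10936134-10936234, plus strand: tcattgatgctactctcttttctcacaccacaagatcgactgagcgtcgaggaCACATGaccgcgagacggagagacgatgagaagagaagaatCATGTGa
lgg-1 peak 4, chrII:6348552-6348652, plus strand: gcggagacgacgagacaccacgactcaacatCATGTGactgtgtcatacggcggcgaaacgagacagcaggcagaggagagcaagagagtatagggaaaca
pkg-2 peak 2, chrIV:8527821-8527921, plus strand: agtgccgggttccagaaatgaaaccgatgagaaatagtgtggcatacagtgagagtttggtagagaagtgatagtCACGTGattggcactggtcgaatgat
hlh-11 peak 3, chrIII:9619148-9619248, plus strand: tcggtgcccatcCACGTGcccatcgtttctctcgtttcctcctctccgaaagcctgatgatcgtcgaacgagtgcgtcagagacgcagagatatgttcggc
nhr-19 peak 4, chrII:9603556-9603656, plus strand: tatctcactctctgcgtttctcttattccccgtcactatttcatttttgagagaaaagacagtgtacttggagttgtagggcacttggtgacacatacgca

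The thresholded list held signal values, which are the authors' own score for each peak. Their scale is not stated. Each replicate list held 30000 entries, peaks and background together, and 687 of the 688 members overlapped an entry of replicate 1 and 687 an entry of replicate 2. The missing values were those of peak 1 of the cluster near ZK673.1 in replicate 1 and of peak 4 of the akt-1 cluster in replicate 2. Read depth is unknown, because no counts were part of these lists. Intervals on shares are 95% Wilson intervals and cover counting error only. Neighbouring peaks of a cluster share their source and are not replicates of each other, and no share below was tested.

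E-boxes were more frequent under the clustered peaks than under the other autosomal peaks. CACGTG or CACATG, on either strand, lay within 50 bp of the summit at 237 of 688 members, 34.4% (95% interval 31.0 to 38.1). Among all merged autosomal peaks the share was 25%, and among the 4705 peaks outside clusters it was 23.6% (interval 22.4 to 24.8). Windows of the same length over the autosomes held either site at 4.73%. Most of the difference lay in the palindrome. CACGTG was found at 122 members, 17.7% (interval 15.1 to 20.8), against 10.1% of the other peaks (interval 9.31 to 11.0) and 1.74% of genome windows. CACATG was found at 125 members, 18.2% (interval 15.5 to 21.2), against 14.3% (interval 13.4 to 15.4) and 3.05% of genome windows. Both sites together lay in 10 member windows.

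Further letters were searched, each on both strands. The general E-box CANNTG, which includes the sites above, was present at 60.5% of members, 51.9% of other peaks and 32.0% of genome windows. TGATAA, the site of GATA factors, was at 15.1% and 15.0%, against 9.22% of genome windows. GAGAGA was at 27.8% and 25.5%, against 5.24%. TGACTCA, a basic zipper site, was at 1.45% and 1.72%, against 0.857%. GTAAACA, a forkhead site, was at 1.31% and 2.15%, against 1.03%. The intervals of members and other peaks overlapped for these last 4 motifs. The median GC content of the windows was 43.6% in members and 44.6% in the other peaks.

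The longer palindrome TCACGTGA was also counted, a choice made after the values were seen. Of 130 CACGTG sites in member windows, 11 (8.46%) read so in full, against 66 of 496 (13.3%) in the other windows and 6.72% of the 15263 CACGTG sites on the autosomes.  The median distance from the E-box to the summit was 21.5 bp in members and 19.5 bp in other peaks.

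The E-box share of members depended on the strength of the peak. By signal value, the merged autosomal peaks were ranked and split into 5 parts of equal size. In the weakest part, 21.3% of the 108 members and 20.3% of the other peaks had an E-box. The next parts gave 32.4% of 105 members against 21.0%, 24.0% of 125 against 23.7%, and 36.9% of 157 against 24.2%. In the strongest part, with signal values from 119 up, the shares were 47.7% of 193 members and 29.3% of 886 other peaks. The difference was thus present in both upper parts and in the second weakest, and nearly absent in the other parts. Members were also stronger as a set, with 28.1% of them in the strongest part, but signal took part in the choice of summits and is given only as a description.

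**Figure D1:**
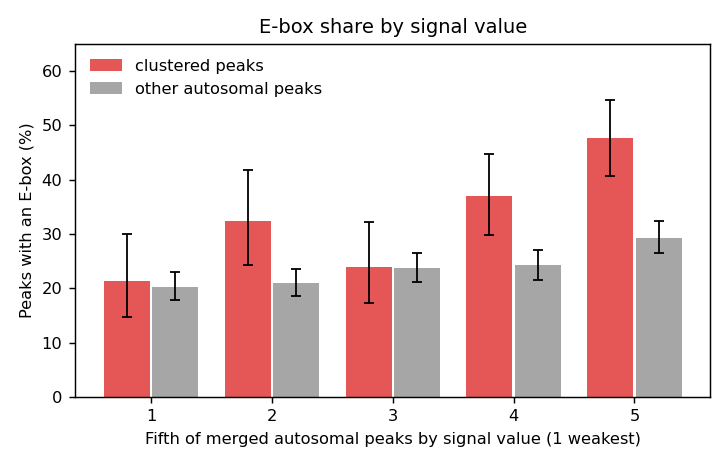
Share of merged autosomal peaks holding either E-box near the summit (y axis, %), by part of the signal range (x axis, from 1, the weakest, to 5), for clustered peaks (red) and other peaks (grey), with 95% Wilson intervals. The bars of clustered peaks stand at 36.9% and 47.7% in the upper parts, against 24.2% and 29.3% for the other peaks.

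Pooled over all clusters, the strongest peak of each held an E-box more often than the other members. Of the 138 strongest peaks, 59 had one (42.8%), against 178 of the other 550 members (32.4%). This was not compared cluster by cluster and was not tested. At least 1 E-box peak was present in 117 clusters, while 21 clusters had none, 47 had exactly 1 and 70 had 2 or more. The mnk-1 cluster had the most, with 7. The clusters at T28B11.1, pkg-2 and F26A3.4 had 6 each.

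Clustered peaks lay farther from gene starts than other peaks. A promoter window, from 1000 bp upstream to 200 bp downstream of the 5′ end of any protein-coding transcript, held 240 of 688 member summits, 34.9% (interval 31.4 to 38.5). The share was 54.0% over all merged autosomal peaks and 56.8% (interval 55.3 to 58.2) outside clusters. Introns held 177 members, 25.7% (interval 22.6 to 29.1), against 15.0% of other peaks. Sequence between genes held 218, 31.7% (interval 28.3 to 35.3), against 23.3%. Coding exons held 9 members (1.31%, against 1.76% of other peaks), and 5′ UTRs held 11 (1.60%, against 0.319%). In 3′ UTRs lay 11 (1.60%, against 0.701%), and in exons of noncoding RNAs or pseudogenes 22 (3.20%, against 2.15%). The nearest annotated 5′ end was at a median distance of 1276 bp in members and 573 bp in other peaks, and 61 members (8.87%) were over 5000 bp away, against 4.27%. Annotated 5′ ends are not always starts of transcription in C. elegans, because trans-splicing removes the first part of many transcripts.

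Summits in the promoter windows of 2 or more genes at once, as at divergent gene pairs, were rare in clusters. There were 26 such members, 3.78% (interval 2.59 to 5.48), against 15.3% of other peaks (interval 14.3 to 16.3). Position took part in the choice of members, so these shares are a description.

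Shares also changed with the number of peaks in a chain. The E-box share was 21.4% for summits with no neighbour within 2000 bp, 27.4% and 27.3% for chains of 2 and 3 peaks, 31.7% for chains of 4, and 36.6% both for chains of 5 and for those of 6 or more. The promoter share fell over the same steps from 61.8% to 51.7%, 41.0%, 39.7%, 36.0% and 27.2%. The intron share was 13.2% for single peaks and 34.7% in chains of 6 or more. Chains of exactly 4 peaks, just inside the threshold, had a median signal value of 79.6, and those of 3 peaks, just outside it, 68.0.

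**Figure D2:**
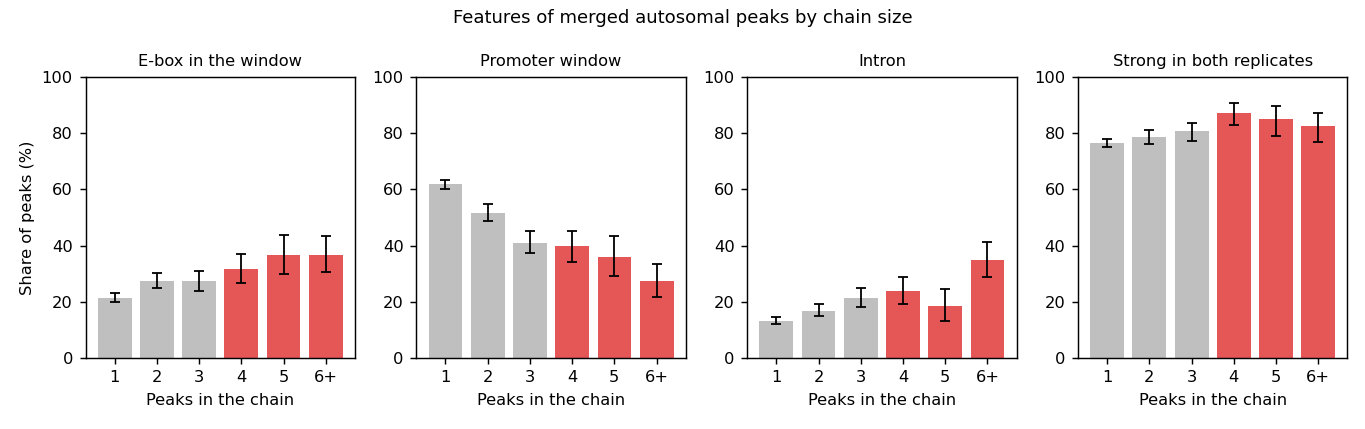
Share of merged autosomal peaks (y axes, %) with an E-box, with a summit in a promoter window, with a summit in an intron, and among the strongest entries of both replicates, by the number of peaks in the chain (x axes), with 95% Wilson intervals. Grey bars are chains below the threshold of 4 peaks and red bars are clusters, and the promoter share is 61.8% for single peaks and 27.2% for chains of 6 or more.

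Most clusters were small. Of the 138, 75 had 4 peaks, 35 had 5, 10 had 6 and 9 had 7, and the longest had 13 and 15. The median span from first to last summit was 3794 bp (range 1780.0 to 16912), and the median gap between neighbours in a cluster was 1030.5 bp (range 202 to 1997), against 5769.5 bp between all neighbouring autosomal summits. All spans together came to 602 kb, or 0.730% of the autosomes. Near the limit of 2000 bp the gaps had no break, with 56 gaps of 1901 to 2000 bp and 49 of 2001 to 2100 bp. In 20 clusters the next summit outside was within 2500 bp.

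Clusters were found on all 5 autosomes. Chromosome III had 31 clusters, 2.25 per Mb, and chromosome II had 33, 2.16 per Mb. Chromosome V had 35 (1.67 per Mb), I had 22 (1.46 per Mb) and IV had 17 (0.972 per Mb). On chromosome IV 8.02% of merged peaks were members, and on chromosome II 16.0%. The middle 50% of each chromosome, where recombination is low and conserved genes are dense, held 75.3% of members (interval 71.9 to 78.4) and 62.1% of other peaks (interval 60.7 to 63.5).

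A host gene was assigned to 122 clusters, as the protein-coding gene whose body, with 1000 bp upstream, held the most member summits. These were 121 different genes. The host held all summits in 39 clusters and at least 50% of them in 87, and clusters in which it held fewer are called "near" the gene. The hosts were long, with a median of 6095 bp, against 1964 bp for all 17242 autosomal protein-coding genes and 2689 bp for the 3803 with a peak. The way hosts were assigned favours long genes, because a longer body can hold more summits. These lengths are therefore a description, and the part of gene length in the choice of hosts was not tested. Hosts had a median of 2.00 annotated 5′ ends, against 1.00 for both other sets, and this was not compared at equal gene length.

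**Figure D3:**
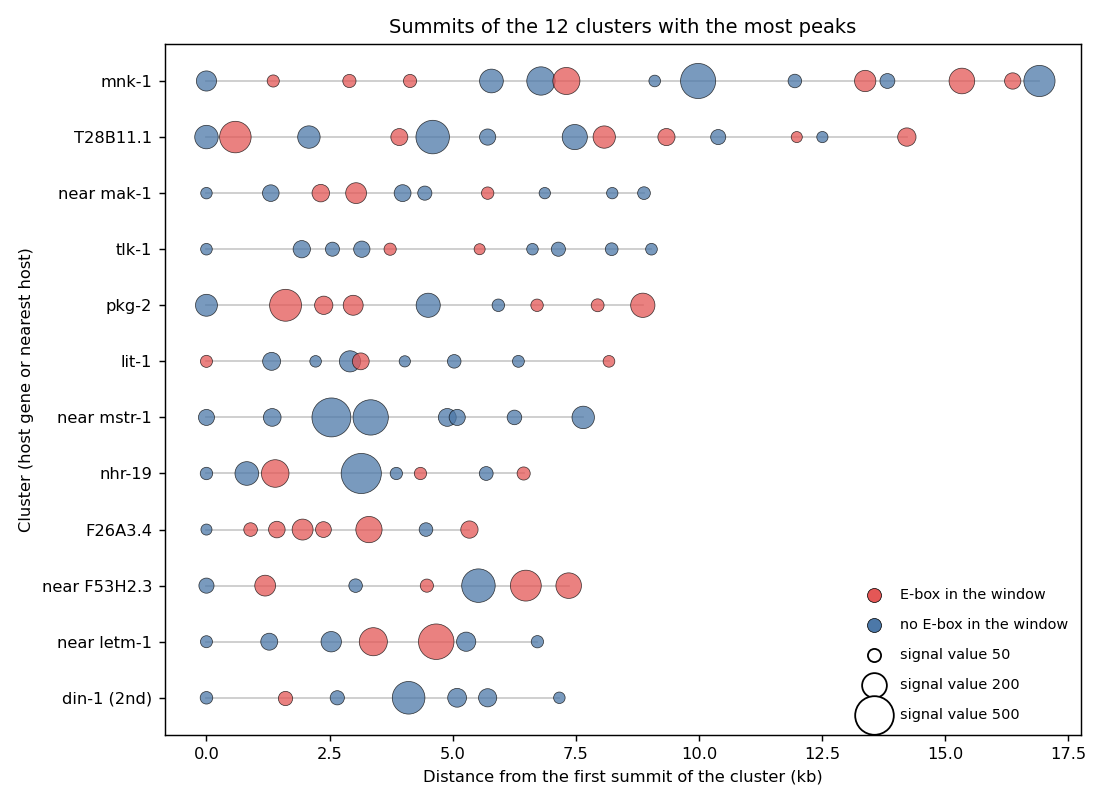
Summits of the 12 clusters with the most peaks, placed by distance from the first summit (x axis, kb). The area of each circle grows with the pooled signal value, and red marks an E-box in the window. The mnk-1 cluster extends over 16.9 kb with 15 summits, and the cluster near mstr-1 shows no red circle.

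The largest cluster lay at mnk-1 (WBGene00011304), the gene of a kinase that acts below MAP kinases and, in mammals, on a factor of translation initiation. It had 15 peaks over 16912 bp (chrII:10542160-10559072), of which 11 lay in the gene or just upstream, and 14 were among the strongest entries of both replicates. Its strongest peak, in an intron, had a pooled signal of 412.0, with 222 in replicate 1 and 191 in replicate 2. The next was its last peak, 4028 bp upstream of the 5′ end of mnk-1, with 323.0 pooled and 147 and 176 in the replicates. Both lacked an E-box in the window. The 7 E-box peaks, all with CACGTG, had pooled values from 41.5 to 241.0. The strongest of these, peak 7, had 127 in replicate 1 and 115 in replicate 2, and peaks 13 and 11 had 119 and 100.1, and 81.5 and 68.1. Peaks 2 to 4 were weak in both replicates and peaks 5 to 7 strong in both. Peak 8 was weak in both and lower in replicate 1 (7.27) than in replicate 2 (30.6).

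The second largest lay wholly inside T28B11.1, annotated as an F-box domain protein by RefSeq. It had 13 peaks over 14220 bp (chrV:10715366-10729586), 11 of them in introns and 2 in promoter windows inside the gene. The highest value was 374.0, in an intron, with 184 in replicate 1 and 195 in replicate 2, and no E-box. The second highest, 329.6 (159 and 176), lay in a promoter window and had a CACGTG. In all, 6 of the 13 had an E-box, from 32.9 to 329.6. The weakest of these, peak 11, was uneven between replicates, at 29.1 and 4.42.

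All 9 peaks of pkg-2, a cGMP-dependent kinase gene (chrIV:8526265-8535124) lay in the gene, 8 in introns and 1 in a promoter window, and 6 had an E-box. The strongest, at 338.0 (146 and 189), held the CACGTG shown above. It was higher in replicate 2, as were 6 others of the 9, and 7 of the 9 were among the strongest entries of both replicates. The cluster at tlk-1, a Tousled-like kinase gene (chrIII:9695612-9704647), had 10 weak peaks, from 32.6 to 93.2, and 2 had an E-box. Only 6 of them lay in the gene or just upstream, and the strongest lay 1030 bp upstream of bud-31. The 10 near mak-1, the gene of a kinase activated by MAP kinases (chrII:8739169-8748052) ran from 35.0 to 139.0, with E-boxes in 3, the strongest among them (49.0 and 89.4). The 9 at lit-1, the Nemo-like kinase gene of Wnt signalling (chrIII:13716383-13724555), ran from 34.3 to 144.0 with 3 E-boxes, and 8 lay in the gene. Its strongest peak had 80.7 in replicate 1 and 68.4 in replicate 2 and no E-box.

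Other large clusters differed in the share of E-boxes. At F26A3.4, a protein tyrosine phosphatase gene by the RefSeq annotation (chrI:7656898-7662237), 6 of 8 peaks had one, and the strongest had 121 in replicate 1 and 106 in replicate 2. Near mstr-1 (chrI:7079720-7087369) none of 8 peaks had one. Its strongest peak, at 508.0 (260.4 and 251), lay 217 bp upstream of mstr-1, and its neighbour had 417.0 (226 and 194). Both were well above the other 6, which ran from 63.8 to 163.0. Near F53H2.3 (chrV:20412489-20419843) all 7 summits lay between genes, 4193 to 8337 bp from the nearest 5′ end, and 4 had an E-box. The highest value there was 374.0 (197 and 182), at a summit with no E-box.

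Between letm-1, a gene of a mitochondrial ion exchanger, and lpin-1, which encodes lipin, a phosphatidate phosphatase of lipid synthesis, the 7 peaks of the cluster near letm-1 filled the space from one promoter to the other (chrV:13654135-13660854). The highest, at 421.0 (246 and 178), and the next, at 259.8 (138 and 127), each had a CACGTG. They lay in the middle, while the peaks at the promoters themselves had only 40.3 (18.1 and 24.6) and 42.8 (23.6 and 15.6). At din-1, which encodes a partner of a nuclear hormone receptor, a cluster of 7 (chrII:11630240-11637405) had its highest value, 354.0 (202 and 158), in a promoter window, and 1 of its 7 peaks had an E-box.

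The 5 clusters with the highest single signal value were at lgg-2, lgg-1, W06H8.6, nhr-19 and Y43F8B.2. The genes lgg-2 and lgg-1 encode the worm's Atg8 proteins, which are coupled to the autophagosome membrane. At lgg-2 (chrIV:10933269-10937020) 6 peaks ran across lsm-7 and lgg-2, the last of them upstream of fic-1. Peak 5, 281 bp upstream of lgg-2, had 470.0 in replicate 1 and 407 in replicate 2, and peak 4, inside the gene, had 308 and 294. Each had CACATG. The others were lower in both replicates: peak 6, in the promoter window of fic-1, had 103 and 111, peak 1 had 40.4 and 60.8, and peaks 2 and 3 had between 18.6 and 32.8.

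The lgg-1 cluster (chrII:6346017-6348602) was compact, with 4 peaks over 2585 bp, all in promoter windows of lgg-1 or of its neighbour C32D5.8. Its peak 4, 883 bp upstream of lgg-1, had 371 in replicate 1 and 323 in replicate 2, with CACATG. Peak 3, only 181 bp upstream, had 85.4 and 54.2 and no E-box. The peaks at C32D5.8 had 58.4 and 41.0, with CACGTG, and 53.9 and 29.7, with neither. All 4 were higher in replicate 1, and the order by strength was the same in both. Of the 20 autosomal genes in the autophagy list, 2 had a member peak, lgg-1 and lgg-2, and 14 had a peak of any kind. Both were larger shares than those over all genes, which were 1.14% and 22.1%.

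**Figure D4:**
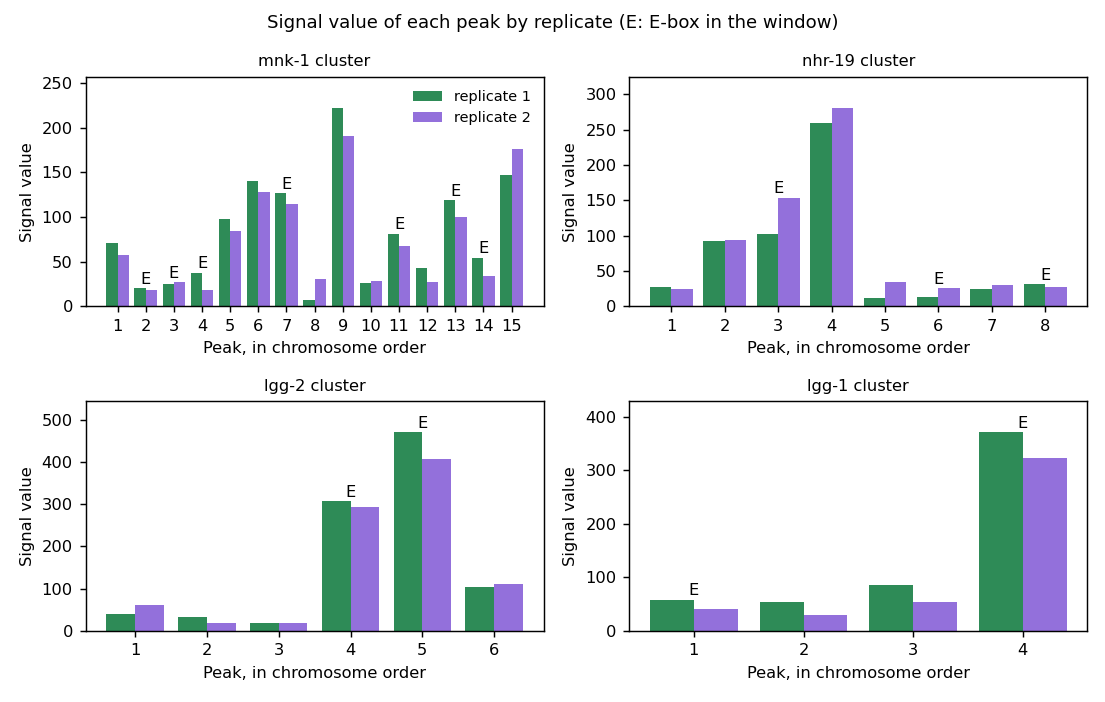
Signal value in each replicate (y axes, scale not stated) of every peak of the clusters at mnk-1, nhr-19, lgg-2 and lgg-1, in chromosome order (x axes), with replicate 1 in green, replicate 2 in purple and E above peaks with an E-box. One peak towers over the rest at nhr-19 (259 and 281) and at lgg-1 (371 and 323), while strong and weak peaks are both found along mnk-1.

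At nhr-19, a nuclear hormone receptor gene (chrII:9600463-9606903), 1 of 8 peaks stood far above the others. Peak 4, in an intron 1644 bp downstream of the nearest 5′ end, had 259 in replicate 1 and 281 in replicate 2. Its pooled value of 541.0 was 10.2 times the median of the cluster, the highest such ratio among the 138 (median 1.94, lowest 1.07). No E-box lay in its window. Its neighbour on the left, peak 3, had 102 and 154 with CACGTG, and peak 2 had 92.3 and 94.3 with neither. The remaining 5 had between 11.6 and 34.3 in either replicate.

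W06H8.6 is annotated as a helix-loop-helix domain protein by RefSeq. Its 5 peaks (chrV:6224630-6229617) had a highest value of 559.0 in an intron (275 and 282) and a second of 322.0 in the promoter window (172 and 149), both without an E-box. The 2 farthest upstream had CACATG, with 46.1 and 35.8, and 105 and 74.2. At Y43F8B.2, with a GSKIP domain by RefSeq (chrV:19521870-19529393), 5 of 6 peaks had an E-box, including the strongest, 539.0 (279 and 261), in an intron. When clusters were chained from 1 replicate alone, this one appeared in replicate 2 only. Its peak 4, which links the others, had 11.8 in replicate 1 and 21.0 in replicate 2.

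Nuclear hormone receptors, a large family of ligand-regulated transcription factors in worms, hosted 7 clusters. Of the 246 autosomal nhr genes, 75 (30.5%) had any peak and 7 (2.85%) a member peak in the gene or just upstream, against 22.1% and 1.14% of all 17242 genes. Besides nhr-19, which held 7 of its cluster's 8 summits, they were nhr-66 and nhr-34, which each held all 4 of theirs. The rest were nhr-85 (3 of 5), nhr-88 and nhr-168 (2 of 4 each) and nhr-119 (only 1 of 5). At nhr-34 (chrIV:9668344-9672651) the 4 peaks were nearly equal, from 81.2 to 109.6 pooled, and 3 had CACGTG. At nhr-88 (chrII:2972981-2976893) the strongest peak, with 147 and 131, lay 2560 bp upstream and had no E-box, while the peak in its promoter window had 17.6 and 27.4. At nhr-66 (chrIV:8232618-8235281) 3 of 4 had CACATG, the strongest with 124 and 108. The highest values at nhr-85 and nhr-168 were 155.0 and 118.0. Near nhr-119 the summit in its promoter window had 95.9, and the highest, 118.0, lay 3038 bp upstream of K12H6.12. The clusters at nhr-85 and nhr-168 were met in neither replicate alone.

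The egl genes, named for defects of egg laying, had member peaks at 3 of 22 (13.6%) and any peak at 10 (45.5%), against 1.14% and 22.1% of all genes. Those with member peaks were egl-44, a TEAD-type transcription factor gene, egl-27, which encodes a chromatin protein related to the MTA family, and egl-9, the prolyl hydroxylase gene that controls the hypoxia factor HIF-1. All 7 peaks of egl-44 (chrII:5930457-5936185) lay in the gene. The strongest had 49.4 and 93.0, and 3 had CACATG. Near egl-9 the strongest of 4 peaks lay in an exon of a noncoding RNA 1767 bp upstream (chrV:10465000-10468435), with 193 in replicate 1 and 195 in replicate 2 and a CACATG. The promoter peak 82 bp upstream of egl-9 was weaker in both, at 70.6 and 78.3. At egl-27 6 peaks had 37.1 to 121.0, 3 of them with CACGTG.

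The egl-27 cluster was the last of 3 in a row. Between snt-1, a synaptotagmin gene, and egl-27 lay clusters of 5 and 4 peaks, 2156 bp apart, and the egl-27 cluster followed 2629 bp further. None of these 9 peaks, which lay between protein-coding genes or in exons of noncoding RNAs or pseudogenes, had an E-box, and their highest value was 131.0. Over all, 7 pairs of clusters lay within 10000 bp of each other. Those at din-1 spanned 19515 bp with 11 peaks (chrII:11617890-11637405). These neighbours were looked up after the values were seen.

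The unc genes, named for uncoordinated movement, had member peaks at 4 of 78 (5.13%) and any peak at 33 (42.3%), against 1.14% and 22.1% of all genes. At unc-14, an adaptor of axonal transport (chrI:7125747-7130899), the promoter peak, 96 bp upstream, had 114 in both replicates and the other 4 had between 18.6 and 44.2. At unc-116, the kinesin heavy chain gene, at unc-94, a tropomodulin gene, and at unc-23, the gene of a cochaperone in muscle, the highest pooled values were 136.0, 102.0 and 95.9. In these 3 clusters the peaks were more even, with the highest 1.34, 1.51 and 1.26 times the median.

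The lin genes, of cell lineage, had member peaks at 3 of 41 (7.32%) and any peak at 26 (63.4%), against 1.14% and 22.1% of all genes, and 2 were hosts. Near lin-59, a histone methyltransferase gene, 5 peaks ran from 74.3 to 189.0, and the strongest (92.4 and 98.8) lay 2424 bp upstream. At lin-42, the worm's period homologue, which times larval development (chrII:1236652-1240652), all 4 peaks lay inside the gene and were weak, from 48.3 to 74.1. The strongest had 37.9 and 35.5.

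In the other gene lists few genes or none had a member peak. Over all genes the share was 1.14% for a member peak and 22.1% for any peak. Lists of this size thus hold few genes with a member peak at the background share, and a count of 0 is near it. Ribosomal protein genes had any peak at 67 of 76 (88.2%) and a member peak at 1 (1.32%), rps-28. Detoxification genes of the gst, ugt and cyp classes had any peak at 38 of 171 and a member peak at 0. The same 0 held for 129 collagen genes (10 with any peak), 106 peptide genes (10), 48 homeobox genes (8), 15 basic zipper genes (8), 8 vab genes (2), 7 sma genes (2) and 3 GATA factor genes (0). In the lipid list 2 of 40 genes (5.00%) had a member peak, the neighbouring desaturase genes fat-3 and fat-4. Their 5 peaks were all in promoter windows, the strongest with 66.1 and 84.3. The let list had 1 of 32 (3.12%), let-526. The daf list had 1 of 22 (4.55%), daf-5, a Sno/Ski gene of the dauer pathway, with all 4 of its peaks in introns.

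Among the 19 autosomal genes of the hlh class, 1 (5.26%) had a peak of any kind, against 22.1% of all genes. This gene was hlh-11, and it also had member peaks, which 1.14% of all genes had. Its cluster of 6 (chrIII:9616591-9622052) had a strongest peak of 380.1, 513 bp upstream, with 170.1 in replicate 1, 218 in replicate 2 and the CACGTG shown above. The other 5 peaks were lower in both, from 23.1 to 60.2. The hlh-30 gene itself had 0 merged peaks within 2000 bp, and the nearest cluster was 433732 bp away. The unc-119 gene had 2 merged peaks (84.4 and 52.5 pooled) and no member.

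Some clusters were uniform in placement. Every summit lay in an intron in 8 clusters, among them spsb-1 with 7 peaks, daf-5 and the chaperonin subunit gene cct-5. Every summit lay between genes in 11, the largest that near F53H2.3. Every summit lay in a promoter window in 7, among them lgg-1 and fat-4. In 27 clusters no summit lay in a promoter window at all. The span from first to last summit overlapped no protein-coding gene in 39 clusters, 1 gene in 74 and 2 or more in 25. The strongest peak of the cluster was in a promoter window in 60 of 138 (43.5%), against 32.7% of the other members.

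Replicates were compared over the 7168 strongest entries of each. Of the 688 members 587, or 85.3% (interval 82.5 to 87.8), overlapped such an entry in both, against 78.6% over all merged autosomal peaks and 77.6% outside clusters. The thresholded list was itself made from these replicates, so this share describes the list and is not independent of it. The replicate values of a member differed by more than 2 times in 53 cases (7.70%), against 9.52% of other peaks. Across members, which are not independent, Spearman's rho between the replicates was 0.82, and across other peaks 0.75. The strongest peak was the same in both replicates in 112 clusters. The summed signal of a cluster in replicate 1 over that in replicate 2 had a median of 1.00 (range 0.501 to 1.60), and 4 clusters lay outside 1.5 times in either direction, at akt-1, F31F7.1, F36D4.5 and between usp-5 and trak-1. At akt-1 the sum of replicate 2 lacked peak 4, which had no entry there, and over its other 3 peaks the ratio was 1.35. In 64 clusters every peak, and in 98 at least 4 peaks, were among the strongest entries of both.

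**Figure D5:**
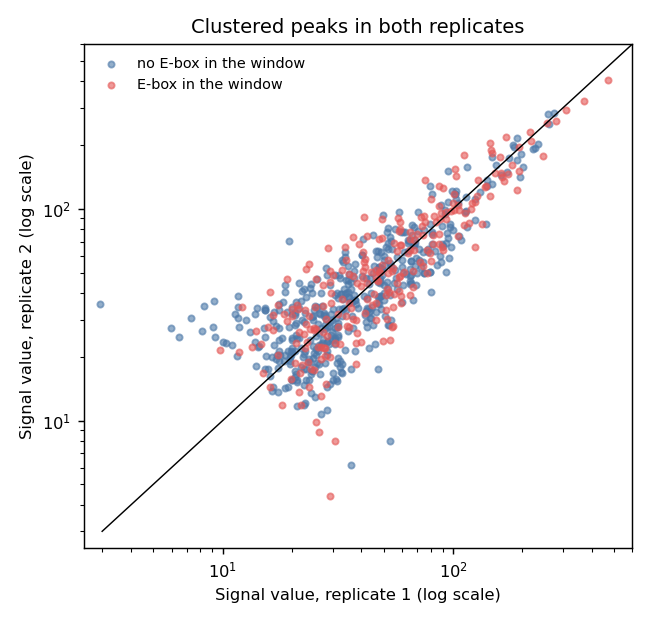
Signal value of each clustered peak in replicate 1 (x axis, log scale) and replicate 2 (y axis, log scale), red with and blue without an E-box in the window, with the line of equal values. The points follow the line (median ratio 1.00), and the widest departures are peaks with low values in 1 replicate.

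When the same chaining was done on the 7168 strongest entries of 1 replicate alone, most clusters were met again. The thresholded list was made from these same replicates, so such overlap is not independent of it. A chain of 4 or more peaks from replicate 1 overlapped 110 of the 138, one from replicate 2 overlapped 116, and 93 were met in both. Neither replicate alone gave 5 of them, at nhr-85, W01A8.2, C14B1.3, nhr-168 and F36D4.5. A few neighbouring members carry the same replicate value, as peaks 5 and 6 near mstr-1, which both have 65.5 and 56.8.

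Repeated sequence and noncoding genes were looked up for the members. At least 50% of the window was repeat-masked at 32 members (4.65%), against 6.87% of other peaks. A run of 20 bases was shared with another summit window by 26 members (3.78%), against 477 other peaks (10.1%), and by 0 members with a window of their own cluster. A tRNA gene lay within 500 bp of 6 members (0.872%), against 3.15% of other peaks. A snoRNA gene lay near 19 (2.76%, against 2.17%), a miRNA near 6 (0.872%, against 0.808%) and a pseudogene near 1 (0.145%, against 1.34%). Genes annotated only as noncoding RNA were the most frequent, near 114 members (16.6%, against 14.7%), and lay in the span of 57 clusters. The span of 2 clusters held a miRNA gene, mir-238 in one between plg-1 and K01F9.2 and mir-58a in the intronic cluster of Y67D8A.2.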

How the data were processed

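The files were peak lists from ChIP-seq of 2 biological replicates. According to notes deposited beside the samples, the authors made lists of peaks and background for each replicate and for the pool of both, against a control alignment, and thresholded them with the irreproducible discovery rate (IDR). For the caller, the aligner and the cut-off, the sources used here give nothing. The deposited signal value is the authors' own score and was used to rank and describe peaks. Only lists on ce11 were used, except that the thresholded ce10 list was chained once as an alternative.

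Merging, chaining and counting were done in Python 3.11.15 (pandas 2.3.3, numpy 2.4.6, scipy 1.17.1) and tested on simulated data. Placement used WBcel235 with Ensembl annotation release 115, with promoters taking precedence over other features. A member was matched to the overlapping entry (at least 1 bp) of each replicate list. Named are the 12 clusters with the most peaks (ties by summed signal), the 5 with the highest signal value, and those whose host belongs to a gene list with at least 2 clusters; other names were chosen after their values were seen. Gene lists are name classes. The members and lists were chosen with earlier results of these data known. Alternatives changed the gap, the number of peaks, the merging, the list, the windows and the replicates.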

Additional observations from a re-analysis of the deposited data

How the results depend on the processing

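The number of clusters depends directly on the chaining. With a largest gap of 1000 bp there were 30 clusters with 131 members, with 3000 bp 211 with 1102. A minimum of 3 peaks gave 337 with 1285, of 5 peaks 63 with 388, and the stronger 50% of the list 41 with 181. Without merging there were 147 with 744, on ce10 139 with 692, and with 1 replicate left out 146 each time, with 720 to 721 members. The E-box share was 18.2% within 25 bp of the summit (other peaks 13.8%), 43.3% within 100 bp (32.4%), and 42.0% in the stronger 50% (27.2%). It was 30.7% to 31.6% with 1 replicate left out (others 22.5% and 22.4%). The promoter share was 41.2% with the 1000 bp gap (others 54.3%), 31.2% with at least 5 peaks (55.7%), 23.1% with 500 bp upstream (45.8%) and 54.7% with 2000 bp (71.2%). The share among the strongest entries of both replicates was 87.8% with the 1000 bp gap (others 78.4%), 100% in the stronger 50% (99.5%), 81.8% when replicate summits had to lie within 100 bp (75.2%), and 52.9% with 50% as many replicate entries (39.5%). In each of these settings, no merging and ce10 aside, for which other peaks were not computed, members stood above other peaks in E-boxes and in replicate overlap, and below them in promoters. The stronger 50% left little room for a difference in replicate overlap, because nearly all peaks of both sets met it. No paired analysis was possible because there was 1 group only. The files hold no counts, so what read depth limits is unknown.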
